A study of Homo sapiens with 16 samples.

Results

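The genes described here encode the proteins of the large subunit of the cytosolic ribosome. They were chosen by name, as a fixed list of 45 gene symbols from RPL3 to RPL41 together with the stalk genes RPLP0, RPLP1 and RPLP2. The rule uses no measured value, but the list was chosen with earlier results of these data known. All 45 were among the 18991 genes of the count table, and all 45 had enough reads to be tested in every comparison. They were measured in MOLM13, a human acute myeloid leukemia cell line with a KMT2A fusion, in which YBX1 was targeted by CRISPR-Cas9. YBX1 encodes an RNA-binding protein of messenger ribonucleoprotein particles.

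All cells stably carried Cas9 and had been selected with blasticidin. The control group (sgLUC) had received a lentiviral non-targeting guide RNA and the other group (sgYBX1) a guide RNA against YBX1, each from a vector with puromycin resistance and a red fluorescent marker, and all cells were kept in puromycin and collected on day 14 after transduction. From each group there were 4 libraries of total RNA and 4 of polysomal RNA, 16 libraries in all. For polysomal RNA, elongating ribosomes were held in place with cycloheximide and the dense fractions of a sucrose gradient were combined. Only RNA with a poly(A) tail entered the libraries. The labels number the replicates without saying what separates them. The study describes replicate cultures used for lysis and fractionation, so the p-values below measure the spread between cultures of 1 line and not between lines or guides. One guide against YBX1 was sequenced, in 1 cell line, and the sources do not describe isolation of single cell clones.

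Large-subunit proteins belong to the subunit that joins amino acids. Some line the tunnel through which the new chain leaves, some bind a small ribosomal RNA, and some build the stalk to which translation factors bind. Most vertebrate mRNAs for ribosomal proteins begin with a C followed by an unbroken run of pyrimidines, the 5′ terminal oligopyrimidine tract, and such mRNAs move in and out of polysomes together when growth signals change. Because ribosomal proteins are assembled together, their genes are usually described as a co-regulated set. The acidic stalk proteins RPLP1 and RPLP2 are present in more copies in a ribosome than the other members.

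The libraries held 38326270 to 66164414 counts each. YBX1 fell from 887 ± 21.2 to 519 ± 23.3 CPM (counts per 1000000 counts of the library, mean ± SD, n = 4) in total RNA, which is 58.6% of the control, and from 875 ± 76.1 to 645 ± 17.1 CPM in polysomal RNA, 73.7% of the control. The guides did not overlap in either fraction (two-sided exact permutation test, p = 0.0286, the smallest p that this design allows). The 8 marker genes of myeloid leukemia cells examined summed to 2825 to 3098 CPM in total sgLUC RNA and to 2029 to 2069 CPM in total sgYBX1 RNA, and to 964 to 1108 and 672 to 751 CPM in the polysomal libraries. Of 11 markers of other blood and stromal cells, 9 were below 1 CPM in every group, and the 11 together summed to 73.7 to 84.6 CPM and 79.2 to 83.4 CPM in total RNA and to 55.6 to 70.8 CPM and 70.7 to 78.4 CPM in polysomal RNA. LYZ, which encodes lysozyme, carried most of the lower sum, with a mean of 2256 CPM in total sgLUC and 1282 CPM in total sgYBX1 RNA. The other 7 markers summed to 757 to 776 CPM and 743 to 778 CPM in total RNA and to 442 to 527 CPM and 434 to 475 CPM in polysomal RNA, ranges that overlap. Of the 8 markers, 5 had the higher mean in sgYBX1 cells in total RNA and 3 in polysomal RNA. MPO was lower without overlap in both, at 85.7 to 87.9 and 60.5 to 63.1 CPM in total RNA. In polysomal RNA it stood at 106 to 117 and 65.1 to 78.9 CPM. Other markers were higher without overlap in total sgYBX1 RNA. CD33 stood at 74.8 to 76.8 CPM in sgLUC and 80.1 to 82.8 CPM in sgYBX1. HOXA9 stood at 14.5 to 18.2 and 18.5 to 20.3 CPM, and MEIS1 at 31.5 to 33.9 and 34.2 to 38.9 CPM. In polysomal RNA the guides overlapped for CD33, HOXA9 and MEIS1. The part of these marker changes in the results below was not tested. Levels are given as CPM scaled with TMM factors over all 16 libraries, so they are relative to the other mRNAs of a library, and in bulk RNA a lower level in each cell cannot be told apart from a lower share of cells that express a gene.

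The bases around an annotated transcript start are shown for 9 members on which the results turn, since their start is what many ribosomal protein mRNAs share. Each window is read 5′ to 3′ from the RefSeq annotation of GRCh38.p14, with 12 bases before the annotated start and 18 from it on, and capitals mark the longest pyrimidine run that begins with C near the start. For a gene with several annotated starts, a start with the tract at that position was preferred, and then the one with the longest run. RPLP2, RPL35 and RPL27A had the highest polysomal over total ratios, RPLP0, RPL3, RPL10 and RPL10A are members that fell in both fractions, and RPL36A and RPL6 moved apart from the others.
RPLP2, chr11:809955-809984, plus strand: cgtcggcgCCTTCCTTTTCCTCCCTgtcgc
RPL35, chr9:124861940-124861969, minus strand: cccgcctaCTTCCTCTTTCCCTCggagcgg
RPL27A, chr11:8682780-8682809, plus strand: gcgaaggCCTTCCTTTTTCgtctgggctgc
RPLP0, chr12:120201094-120201123, minus strand: cgggcgcgaggCCCTTCTCTCgccaggcgt
RPL10, chrX:154398365-154398394, plus strand: gcggaggagcgCCTCTTTCCCTTCggtgtg
RPL36A, chrX:101390999-101391028, plus strand: gcctcgcggtttCTTTCTTTCCgcgccgat
RPL10A, chr6:35468389-35468418, plus strand: gcaagacatgctagtCTCTTTTCCggttag
RPL3, chr22:39319606-39319635, minus strand: aggccgaccggCCTCTaccggcgggatttg
RPL6, chr12:112411425-112411454, minus strand: ttgtatcctcagtgaatcagaaccagaaaa
In 7 of these windows the run covers the annotated start itself, as it does in RPLP2 and RPL36A. In RPL10A it begins 3 bases further into the transcript, and the RPL6 window has no such run. The RPL6 start shown lies inside the gene as GENCODE annotates it, whose 5′ end is at chr12:112418838. Which starts these cells use was not tested, so the mRNA of RPL6 may begin elsewhere.

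The 45 members together took up a modest part of the mRNA reads in total RNA and a larger one in polysomes. In total sgLUC RNA they held 4.96, 4.88, 4.77 and 4.88% of all counts in replicates 1 to 4, and in total sgYBX1 RNA 4.45, 4.45, 4.32 and 4.55%. In polysomal RNA the shares were 8.65, 8.14, 7.45 and 8.46% in sgLUC and 6.89, 6.89, 6.28 and 6.31% in sgYBX1. In both fractions every sgYBX1 library lay below every sgLUC library, and in both guides every polysomal library lay above every total one. These are shares of raw counts. Without TMM the median log2 change of all genes was −0.19 in polysomal RNA, against −0.37 for the members. In total RNA these medians were 0.04 and −0.11. The median polysomal over total log2 ratio in sgLUC cells was then −0.93 for all genes and 0.56 for the members. One gene made up a good part of the polysomal share. RPL8, a protein close to the joining centre, alone held 1.92 to 2.00% of counts in polysomal sgLUC RNA and 1.60 to 1.77% in polysomal sgYBX1 RNA, against 0.661 to 0.728% and 0.603 to 0.667% in total RNA. Without RPL8 the shares still did not overlap, at 4.11 to 4.28% and 3.72 to 3.88% in total RNA and 5.47 to 6.69% and 4.68 to 5.23% in polysomal RNA.

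**Figure D1:**
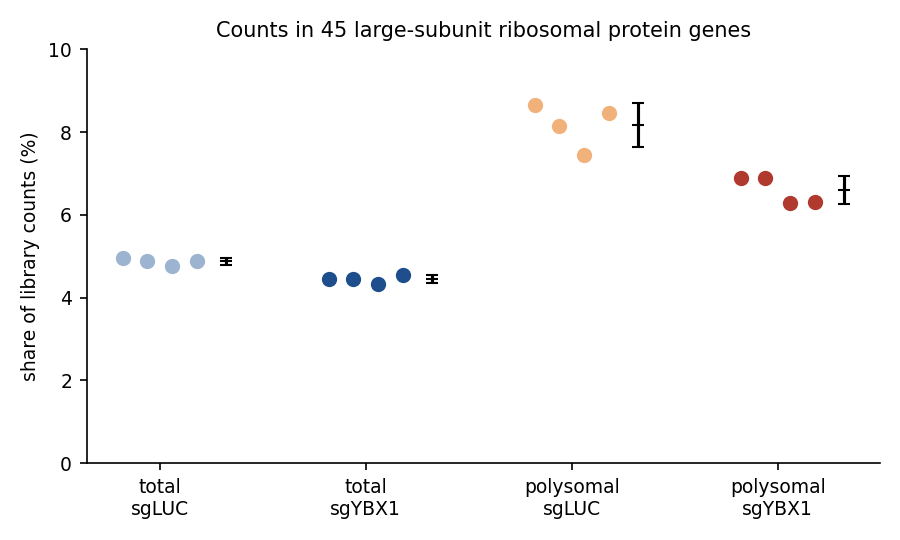
Share of all counts in the 45 large-subunit genes (y axis, percent) in the 4 groups (x axis), 1 point per library in the order of replicates 1 to 4, with the mean and SD of each group beside the points. The means were 4.87 ± 0.0797% and 4.44 ± 0.0945% in total RNA and 8.17 ± 0.526% and 6.59 ± 0.342% in polysomal RNA (SD, n = 4), sgLUC before sgYBX1, and the guides do not overlap in either fraction.

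Counts per kilobase of coding sequence ranged widely between members. In total sgLUC RNA the level per coding kilobase had a median of 1372 CPM, and RPL8 stood at 6560.3, the stalk gene RPLP1 at 3769 and RPL30 at 3663. At the other end were RPL36A at 13.9, RPL17 at 18.2 and RPL21 at 31.0 CPM per coding kilobase. In polysomal sgLUC RNA the median was 2338, RPL8 stood at 33666, RPLP2 at 17537 and RPL37A at 13960.4, and RPL17 at 9.79, RPL21 at 49.1 and RPL36A at 87.9 CPM per coding kilobase. Reads of some members are hard to assign. RPL17 shares 91.0% of its transcript with the annotated readthrough gene RPL17-C18orf32 and RPL36A 77.6% with RPL36A-HNRNPH2, while RPL21 has 66 annotated pseudogenes. RPL23A, RPL7 and RPL12 have 91, 61 and 50. How reads that fit several places were counted is not given in the sources used here, so the levels of these genes are uncertain, also against other members. Low levels and such features did not always go together, since RPL26 shares 65.3% of its transcript with AC135178.2 and had 1325 CPM per coding kilobase in total sgLUC RNA, and RPL39 and RPL9, with no overlap and 15 and 17 pseudogenes, had 98.2 and 117.

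In total RNA nearly all members were slightly lower in sgYBX1 cells. Of the 45, 32 fell, RPL36A rose and 12 did not pass the test (edgeR quasi-likelihood test, adjusted p under 0.05), where 9.15% of the 12214 genes tested fell and 7.62% rose. The median log2 change of the members was −0.14, against 0.00 for all genes tested, and 44 of the 45 values were below 0. In 29 members the highest of the 4 sgYBX1 libraries was lower than the lowest control, as in 10.3% of all genes tested. The changes were small, from −0.28 to −0.09 among the 32, and the replicates lay close together (biological coefficient of variation 0.0463). When the spread was taken from all 16 libraries together, whose coefficient of variation was 0.119, 1 member was called lower, with a median that was nearly the same at −0.15. Calls became few among all genes too, with 78 of 12517 lower and 58 higher in that fit.

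RPLP0, the stalk protein that anchors the other stalk proteins, was among the members that fell most in total RNA. It measured 1502, 1343, 1418 and 1432 CPM in sgLUC replicates 1 to 4 and 1190.5, 1172, 1107 and 1177 CPM in sgYBX1. The groups did not overlap, and the log2 change was −0.28 ± 0.03 (SE; edgeR adjusted p = 3.63e-06). RPL27A measured 409.8, 371, 383 and 386 CPM in sgLUC and 321, 321, 302 and 322 CPM in sgYBX1, a log2 change of −0.28 ± 0.03 (adjusted p = 5.95e-06). Again every sgYBX1 library was the lower. RPL13A, which is also known for a role in silencing of inflammatory mRNAs, measured 1601, 1518, 1509 and 1572 CPM in sgLUC and 1309, 1282, 1242 and 1334 CPM in sgYBX1 and fell by 0.25 ± 0.03 on the log2 scale (adjusted p = 6.91e-06). RPL3, a protein that reaches to the joining centre, fell by 0.24 ± 0.03 (adjusted p = 4.47e-06) and RPL4, whose loop lines the exit tunnel, by 0.24 ± 0.03 (adjusted p = 2.75e-05). For both, too, the groups did not overlap in total RNA.

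RPL36A was the exception, with low values and groups that overlapped. It measured 3.95, 5.41, 4.38 and 3.89 CPM in total sgLUC RNA and 5.42, 6.29, 7.36 and 5.21 CPM in total sgYBX1 RNA, and rose by 0.49 ± 0.12 on the log2 scale (adjusted p = 0.00951). In polysomal RNA it measured 25.7, 31.7, 30.5 and 23.9 CPM against 38.5, 31.1, 40.9 and 47.8 CPM, and rose by 0.51 ± 0.14 (adjusted p = 0.00789). One sgYBX1 library in each fraction lay within the range of the controls, and the polysomal call was lost without polysomal sgYBX1 replicate 4 and with total counts in place of TMM. The autosomal copy RPL36AL, which has its own name in the table, had log2 changes of −0.02 in total and 0.12 in polysomal RNA and passed the test in neither.

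**Figure D2:**
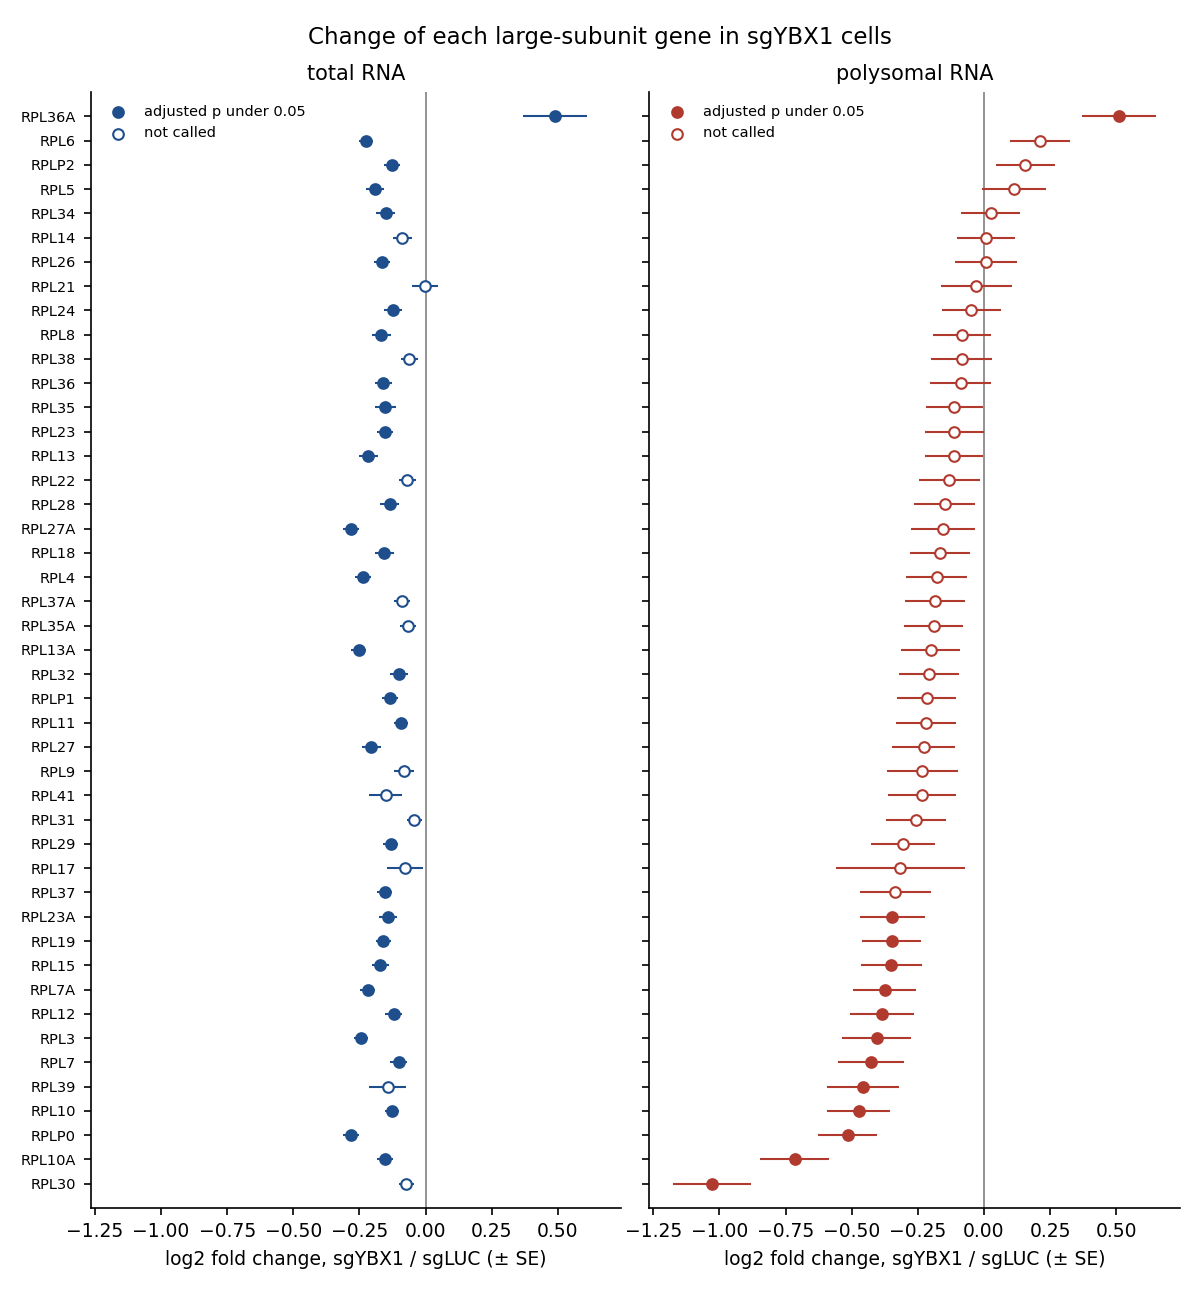
Log2 change of sgYBX1 over sgLUC (x axis) for each of the 45 members (y axis, ordered by the polysomal change) in total RNA (left) and polysomal RNA (right), with bars for 1 SE either side (4 libraries per group) and filled points for adjusted p under 0.05. In total RNA 44 members lie left of 0 with a median of −0.14, and in polysomal RNA 38 do with a median of −0.20 and wider errors, from RPL30 at −1.03 to RPL36A at 0.51.

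In polysomal RNA the members were lower by a like amount on average, but fewer passed the test and the members differed more among themselves. Of the 45, 12 fell, RPL36A rose and 32 did not pass, where 10.1% of the 11742 genes tested fell and 12.5% rose. The median log2 change was −0.20 (all genes tested −0.02), 38 of 45 values were below 0, and the replicates spread further than in total RNA (biological coefficient of variation 0.181). All 4 sgYBX1 libraries lay below all 4 controls in 13 members and above them in 1, RPLP2 (10.9 and 12.4% of all genes tested). The count of 12 depends on single libraries, at 5 without sgLUC replicate 4, 6 without sgYBX1 replicate 3 and 5 without sgYBX1 replicate 4. The count of all genes that fell also moved, from 1185 to 599, 713 and 645 in the same order. Scaling to total counts in place of TMM moved the median of all genes by −0.16 and gave 33 lower members, and relative to that median the members stayed at −0.18 in both scalings. With total counts 2652 of the 11742 genes tested fell.

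The lower value of RPL30 in polysomes was the widest change of any member. RPL30, which sits where the subunits meet and in yeast binds and regulates its own RNA, measured 886, 617, 522 and 933 CPM in polysomal sgLUC RNA and 396, 369, 338 and 338 CPM in polysomal sgYBX1 RNA. Even the lowest control lay above the highest sgYBX1 library, although the controls themselves were spread wide, and the log2 change was −1.03 ± 0.15 (edgeR adjusted p = 2.44e-05), between −1.17 and −0.87 when any 1 library was left out. In total RNA the same gene measured 1335, 1197, 1253 and 1269.7 CPM against 1212, 1208, 1164 and 1190.2 CPM, a log2 change of −0.07 ± 0.03 that did not pass the test (adjusted p = 0.0876). There the groups overlapped.

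RPL10A, a protein of the mobile stalk on the other side of the subunit, came next. It measured 728, 587, 470.1 and 702 CPM in polysomal sgLUC RNA and 402, 398, 358 and 347 CPM in polysomal sgYBX1 RNA, and fell by 0.72 ± 0.13 on the log2 scale (adjusted p = 0.000236) with no overlap. In total RNA it measured 895, 861, 838 and 865 CPM against 780.0, 764, 741 and 807 CPM and fell by 0.15 ± 0.03 (adjusted p = 0.00213), also with no overlap. The polysomal fall was thus the larger of the pair, as it was for RPL30.

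RPLP0 fell in polysomal RNA as well, from 2132, 1925, 1835 and 2016 CPM to 1429, 1338, 1379.7 and 1351 CPM, a log2 change of −0.51 ± 0.11 (adjusted p = 0.00122). RPL10, one of the last proteins to join the maturing subunit, measured 1417, 1191, 1107 and 1225 CPM in polysomal sgLUC RNA and 1016, 843, 828 and 847 CPM in polysomal sgYBX1 RNA, and fell by 0.47 ± 0.12 (adjusted p = 0.00428). In neither gene did the polysomal groups overlap. RPL7, an RNA-binding protein of the subunit, measured 389, 322, 334 and 482 CPM against 260.1, 276, 305 and 287 CPM, with a log2 change of −0.43 ± 0.12 (adjusted p = 0.0137). Its call was lost without polysomal sgLUC replicate 4, the highest library, and without polysomal sgYBX1 replicate 2.

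RPL3 is an example of a polysomal call that rests on the choice of libraries. It measured 1836, 2306, 2449 and 2589 CPM in sgLUC and 1341, 1955, 1937 and 1642 CPM in sgYBX1. The lowest control lay below both of the higher sgYBX1 libraries, so the groups overlapped, and the log2 change of −0.41 ± 0.13 (adjusted p = 0.025) did not pass without sgLUC replicate 4, sgYBX1 replicate 1 or sgYBX1 replicate 4. RPL39, a very short protein of the exit tunnel, measured 136, 93.5, 79.8 and 100.4 CPM against 85.0, 70.8, 71.6 and 69.2 CPM and fell by 0.46 ± 0.14 (adjusted p = 0.0154). Only its highest sgYBX1 library reached into the range of the controls. The other 5 members that fell in polysomal RNA were RPL12, RPL7A, RPL15, RPL19 and RPL23A, with log2 changes from −0.39 to −0.35.

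The members that fell in both fractions numbered 10, namely RPL3, RPL7, RPL7A, RPL10, RPL10A, RPL12, RPL15, RPL19, RPL23A and RPLP0. Of these, RPL7 was called in total RNA under 9 of 17 alternatives (log2 change −0.10 ± 0.03, edgeR adjusted p = 0.0316) and in polysomal RNA RPL15 and RPL23A were called under 12, RPL7A and RPL12 under 13 and RPL3 and RPL19 under 14 of 17. RPL30 and RPL39 passed in polysomal RNA only, 22 members fell in total RNA and did not pass in polysomal RNA, RPL36A rose in both, and 10 passed in neither fraction. Of all genes tested, 9.15% fell in total and 10.1% in polysomal RNA. The share of all genes with each joint call was not determined, so these counts are descriptions. Passing in one fraction and not in the other does not show that the changes differ, which the next comparison tests.

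The change in polysomal RNA was set against the change in total RNA within 1 model of all 16 libraries. Of the 45 members, 3 had a lower change in polysomal than in total RNA (RPL10, RPL10A and RPL30), 2 a higher one (RPL6 and RPLP2) and 40 did not pass, where 6.89% of the 12517 genes tested were lower and 9.84% higher. The median difference was −0.08 on the log2 scale for the members and −0.04 for all genes tested. The count of lower members therefore stood near that of genes at large. For RPL30 the difference was −0.95 ± 0.18 (adjusted p = 0.00102) and for RPL10A −0.56 ± 0.14 (adjusted p = 0.00805), and both passed under each of the 25 alternatives. For RPL10 it was −0.35 ± 0.11 (adjusted p = 0.0365) and passed under 11 of 25.

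RPL6 and RPLP2 went the other way. RPL6, a protein of the outer face of the subunit, measured 583, 536, 563 and 563 CPM in total sgLUC RNA and 477, 479.5, 466 and 486 CPM in total sgYBX1 RNA, a fall of 0.22 ± 0.03 on the log2 scale (adjusted p = 1.46e-05). In polysomal RNA it measured 509.9, 461, 401 and 432 CPM in sgLUC and 498, 546, 491 and 542 CPM in sgYBX1, a log2 change of 0.21 ± 0.11 that did not pass (adjusted p = 0.193). The groups lay apart in total RNA and overlapped in polysomal RNA, and the difference of the changes was 0.44 ± 0.10 (adjusted p = 0.00604), which was lost under 1 of 25 alternatives, total counts without TMM. RPLP2, an acidic protein of the stalk, measured 655, 623, 621 and 653 CPM against 574, 569, 575 and 603 CPM in total RNA and fell by 0.13 ± 0.03 (adjusted p = 0.00527). In polysomal RNA it measured 6258, 6109, 6067 and 5767 CPM against 7463, 6264, 6348 and 6716 CPM, with a log2 change of 0.16 ± 0.11 (adjusted p = 0.334). Its libraries did not overlap in either fraction, and the difference of the changes, 0.28 ± 0.10 (adjusted p = 0.0454), passed under 11 of 25 alternatives.

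**Figure D3:**
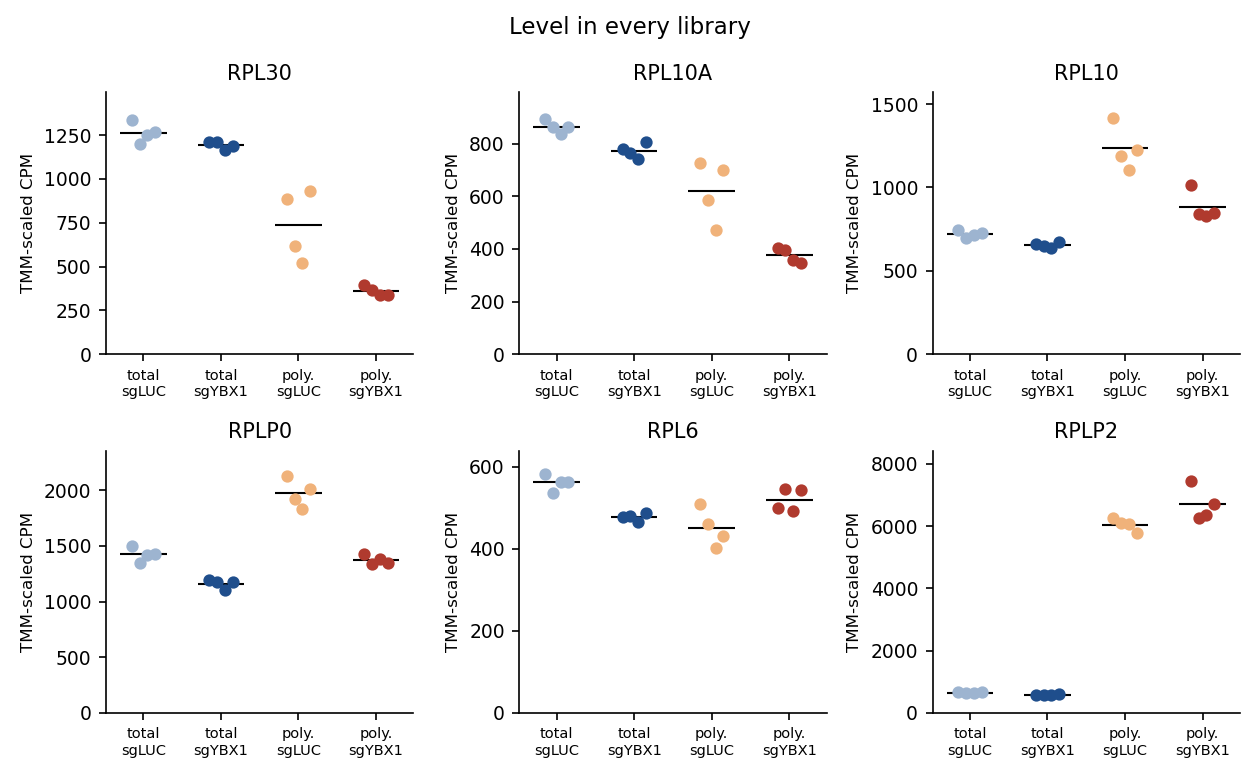
TMM-scaled CPM (y axis, linear from 0, a scale of its own for each gene) of RPL30, RPL10A, RPL10, RPLP0, RPL6 and RPLP2 by fraction and guide (x axis), 1 point per library with a line at the group mean. RPL30 lies at 522 to 933 CPM in polysomal sgLUC RNA and at 338 to 396 CPM in polysomal sgYBX1 RNA while its total RNA groups overlap, and RPLP2 lies 9.49-fold higher in polysomal than in total sgLUC RNA.

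Across the 45 members, the total and polysomal changes, which share no library, had a Spearman rho of 0.06 and a Pearson r of 0.36, against 0.27 and 0.35 across all 11462 genes tested in both. In the 39 members with at least 100 CPM the values were −0.01 and −0.07, so the Pearson value was not seen without the members of few reads, RPL36A among them. Genes are not independent replicates, and these values are descriptions.

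In sgLUC cells most members were more abundant in polysomal than in total RNA. Of the 45, 39 were higher, 5 were lower and RPL3 did not pass, where 39.3% of the 12517 genes tested were higher and 42.5% lower, and the median log2 ratio of polysomal over total RNA was 1.41 against −0.08 for all genes. In sgYBX1 cells 38 were higher, 4 lower and 3 did not pass (39.9 and 43.1% of all genes), with medians of 1.29 and −0.10. The libraries of the fractions did not overlap in 39 members that were higher and 5 that were lower in sgLUC cells (35.8 and 40.5% of all genes). This ratio compares shares of separate libraries and depends on the scaling. With total counts in place of TMM the median of all genes moved by −0.85 in sgLUC, and 27 members were higher and 11 lower, while relative to that median the members stayed at 1.49 in both scalings. Of the 12517 genes tested 2870 were then higher and 7646 lower.

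The stalk protein RPLP2 and the tunnel-exit protein RPL35 stood at the top of the order. RPLP2 rose from 621 to 655 CPM in total sgLUC RNA to 5767 to 6258 CPM in polysomal sgLUC RNA, a log2 ratio of 3.25 ± 0.07 (edgeR adjusted p = 3.83e-20) or 9.49-fold. RPL35 measured 564 to 615 CPM in total and 4775 to 5052 CPM in polysomal sgLUC RNA, a ratio of 8.34-fold. RPL27A followed with a log2 ratio of 2.86 ± 0.09 (adjusted p = 1.9e-18), from 371 to 409.8 CPM up to 2476 to 3146 CPM. None of these groups came near to touching.

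The lower end held RPL7, RPL17, RPL30, RPL10A and RPL6 in sgLUC cells. RPL30 was lower in polysomal than in total RNA, with a log2 ratio of −0.77 ± 0.12 in sgLUC cells (adjusted p = 5.15e-06) and −1.73 ± 0.13 in sgYBX1 cells (adjusted p = 1.08e-11). RPL7 had ratios of −0.92 and −1.24, RPL17 of −0.89 and −1.13, and RPL10A of −0.48 and −1.04, in sgLUC and sgYBX1 cells. All 4 were called lower in both guides, although RPL17 had few reads, 80 to 880 counts in a library. RPL6 was lower in sgLUC cells, at −0.32 ± 0.07 (adjusted p = 0.00043), and at 0.12 ± 0.07 in sgYBX1 cells, which did not pass (adjusted p = 0.128). RPL3 had a ratio of 0.01 ± 0.10 in sgLUC cells (adjusted p = 0.961).

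**Figure D4:**
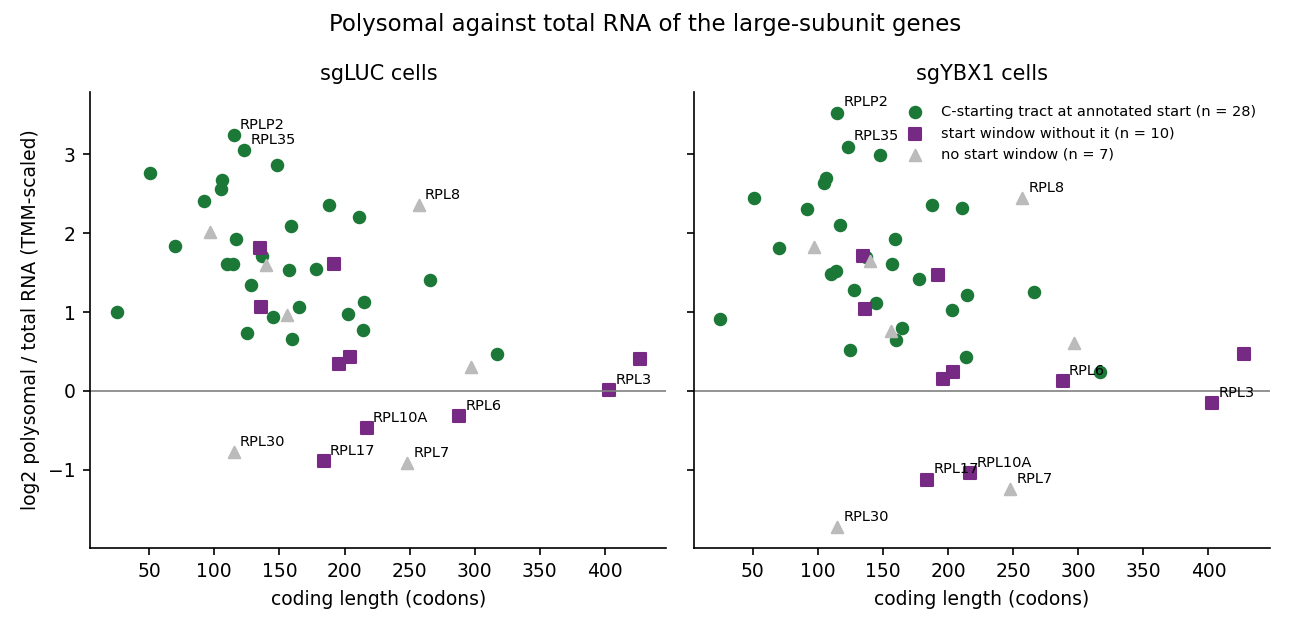
Log2 ratio of polysomal over total RNA (y axis) against coding length in codons (x axis) for the 45 members. Panels show sgLUC cells (left) and sgYBX1 cells (right). Green circles are 28 members with a C-starting pyrimidine tract at an annotated start. Purple squares are 10 with a start window but no such tract at that position, and grey triangles are 7 without a window. In sgLUC cells all 28 circles lie above 0, members under 150 codons have a median of 1.82 and those of 250 codons or more of 0.41.

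Length ran along with this order. The members are short, from 25 to 427 codons with a median of 157, where all coding genes have a median of 425. The 21 members under 150 codons had a median polysomal over total log2 ratio of 1.82 in sgLUC cells, the 17 from 150 to under 250 codons 0.97 and the 7 longer ones 0.41. Other coding genes of the same length classes had medians of 1.11, 0.54 and −0.27, so short genes at large were also higher in the polysomal libraries and the members stood above them in each class. Spearman's rho between ratio and coding length was −0.55 across the 45 members and −0.27 across 12390 coding genes. The change in polysomal RNA in sgYBX1 cells also went with length among other genes, with medians of −0.23 under 150 codons, −0.13 from 150 to under 250 and 0.01 above, where the members had −0.155, −0.30 and −0.18 in the same order of classes. The shortest members thus had a smaller median fall than other genes of their length, and the longer ones a larger one. The part of length in the polysomal change was not tested. In total RNA the same classes of other genes had medians of −0.03, −0.01 and 0.01, and the members −0.14, −0.13 and −0.22.

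The pyrimidine tract at the start went with the polysomal ratio as well. RefSeq start windows were found for 38 of the 45 members. A C at an annotated start with at least 4 further pyrimidines after it was present in 28 of the 38 (73.7%), against 6.36% of 14864 coding genes. A C-starting run of 5 or more lay within 15 bases either side of a start in 37 (97.4%) against 49.8%. A gene was counted if any of its annotated starts qualified. Counted by start, 56.0% of the members' 50 starts had the tract at the start, against 4.60% of 20987 starts of coding genes. All 28 members with the tract at the start were higher in polysomal than in total RNA in both guides, with a median log2 ratio of 1.61 in sgLUC cells. Among all genes tested 39.3% were higher in sgLUC and 39.9% in sgYBX1 cells, and 42.5 and 43.1% lower. Of the other 10, 6 were higher, 3 lower and RPL3 did not pass, with a median of 0.37. All of these 10 but RPL6 hold a C-starting run of 5 or more within 15 bases of the start. They are also longer, with a median of 200 codons against 141. Outside the members, the small-subunit genes and a list of known oligopyrimidine mRNAs, the tract did not go with a high ratio. Among 682 such coding genes that have it 274 were higher and 299 lower, with a median of −0.05. Of 19 small-subunit genes with the tract at the start, 16 were higher and 1 lower, with a median of 1.82. Of 6 other small-subunit genes with a window, 4 were higher and 1 lower, with a median of 0.97. In total RNA the members' changes in sgYBX1 cells had medians of −0.13 with the tract at the start and −0.17 in the other 10. There 18 of 28 and 8 of 10 fell. In polysomal RNA the medians were −0.16 and −0.27, and 5 of 28 and 4 of 10 fell, with no test between the sets. Among all genes tested 9.15% fell in total and 10.1% in polysomal RNA. RPL36A, which rose, has the tract at its start.

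By role, the falls in total RNA were spread over the subunit. All 4 stalk genes on the list, RPLP0, RPLP1, RPLP2 and RPL12, fell in total RNA with a median of −0.13, and RPLP0 and RPL12 fell in polysomal RNA. RPLP1, the acidic partner of RPLP2, measured 1347, 1249, 1267 and 1293 CPM in total sgLUC RNA and 1165, 1159.9, 1124 and 1215 CPM in total sgYBX1 RNA, a log2 change of −0.13 ± 0.03 (adjusted p = 0.00342), and in polysomal RNA its change was −0.22 ± 0.11 (adjusted p = 0.173). RPL12, at the base of the stalk, measured 969, 886, 707 and 898 CPM in polysomal sgLUC RNA and 714, 688, 596 and 633 CPM in polysomal sgYBX1 RNA, a log2 change of −0.39 ± 0.12 (adjusted p = 0.0211), and fell by 0.12 ± 0.03 in total RNA (adjusted p = 0.0136). RPLP1 did not overlap in total RNA, and 1 polysomal control of RPL12 lay within the sgYBX1 range. RPL5 and RPL11, which carry a small ribosomal RNA into the subunit and, when unassembled, bind the p53 regulator MDM2, fell by 0.19 ± 0.03 (adjusted p = 9e-04) and 0.09 ± 0.03 (adjusted p = 0.0244) in total RNA. In polysomal RNA they had log2 changes of 0.11 ± 0.12 and −0.22 ± 0.11 and did not pass. Of 8 genes whose proteins line or border the exit tunnel 5 fell in total and 3 in polysomal RNA, of 3 genes at the interface with the small subunit 1 fell in total and RPL30 alone in polysomal RNA, and of 9 genes mutated in Diamond-Blackfan anemia 7 fell in total and 1 in polysomal RNA. Over all genes tested 9.15% fell in total and 10.1% in polysomal RNA, and 1 of 9 is near that polysomal share. The medians of these groups in total RNA lay between −0.16 and −0.12.

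The genes of the small subunit were mostly lower in sgYBX1 cells as well. In total RNA 26 of 30 tested fell, with a median of −0.16, and in polysomal RNA 16 of 32 fell, with a median of −0.31. Their median polysomal over total log2 ratio in sgLUC cells was 1.45, with 26 higher and 3 lower. Of 20 mRNAs for proteins outside the ribosome that are known to carry the oligopyrimidine tract, such as elongation factors, 12 fell and 1 rose in total RNA (median −0.15), and 5 fell and 3 rose in polysomal RNA (median −0.22). The large-subunit proteins of the mitochondrial ribosome, encoded by nuclear MRPL genes, differed from the cytosolic ones in total RNA, where 2 of 49 fell and 2 rose with a median of 0.00, and were like them in polysomal RNA, where 16 of 48 fell and 2 rose with a median of −0.24. Among all genes tested 9.15% fell and 7.62% rose in total RNA, and 10.1% fell and 12.5% rose in polysomal RNA. In sgLUC cells 39.3% of all genes were higher and 42.5% lower in polysomal than in total RNA. The sets differ in size and length, and no test between them was made.

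**Figure D5:**
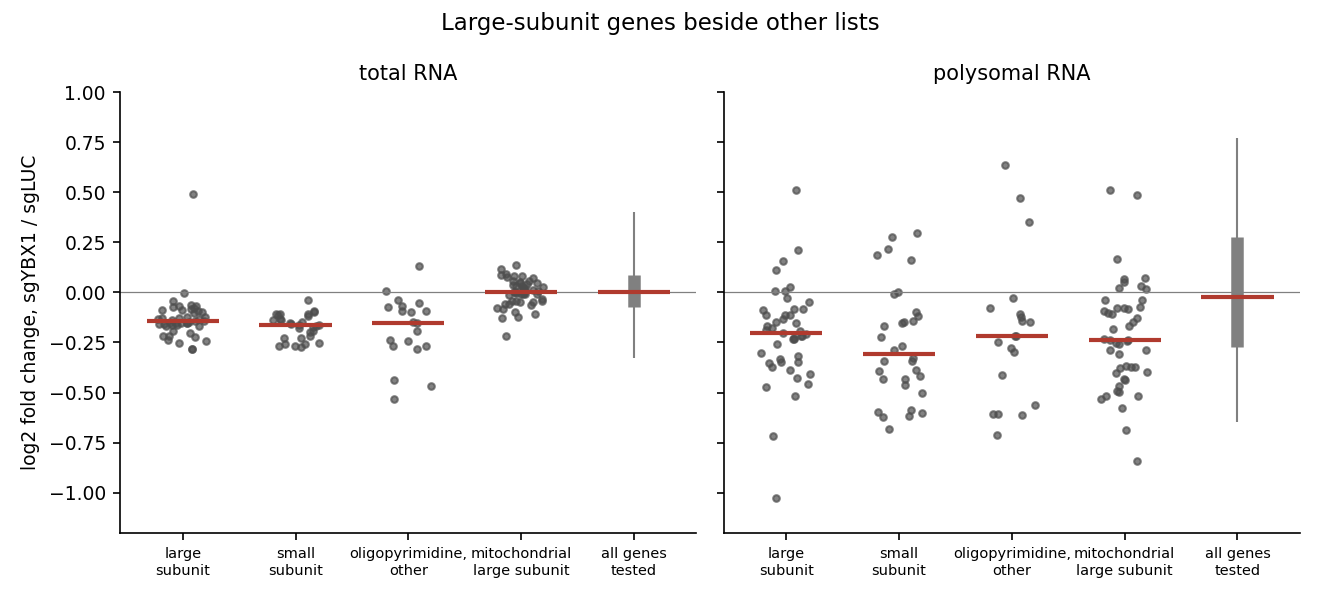
Log2 change of sgYBX1 over sgLUC (y axis) in total (left) and polysomal RNA (right) for the 45 members, the small-subunit genes, oligopyrimidine mRNAs outside the ribosome and MRPL genes (x axis), 1 point per gene with red lines at the medians, and for all genes tested a thick grey line between the quartiles and a thin one between percentiles 5 and 95. The medians of the 4 lists are −0.14, −0.16, −0.15 and 0.00 in total RNA and −0.20, −0.31, −0.22 and −0.24 in polysomal RNA.

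Paralogs of the members, which are counted as genes of their own, did not all follow them. RPL7L1, a nucleolar relative of RPL7 that acts in subunit maturation, measured 1718, 1920.3, 1927 and 1576 CPM in polysomal sgLUC RNA and 2444, 2230.0, 2864 and 2862 CPM in polysomal sgYBX1 RNA, and rose by 0.55 ± 0.12 on the log2 scale (adjusted p = 0.00125) with no overlap. In total RNA its log2 change was −0.01 ± 0.03 (adjusted p = 0.816), and the difference of the changes was 0.56 ± 0.12 (adjusted p = 0.00256). RPL7 itself fell in both fractions. RPL22L1 fell in both, by 0.22 ± 0.04 and 0.40 ± 0.12 (adjusted p = 3.04e-04 and 0.0211), whereas RPL22 passed in neither. RPL39L fell in polysomal RNA by 0.56 ± 0.14 (adjusted p = 0.00372), near the value of RPL39, with a total RNA log2 change of −0.08 ± 0.07 (adjusted p = 0.522). RPL26L1, with log2 changes of −0.05 ± 0.05 in total and 0.09 ± 0.12 in polysomal RNA, and RPL36AL passed in neither fraction.

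The authors set a gene effect score from a public CRISPR screen of MOLM13 beside each gene, in which lower values mean that guides against the gene are lost from the culture. The members had a median of −1.51, and 40 of the 45 were below −0.5 and 36 below −1, where 19.9 and 8.96% of expressed genes were. RPL23 (−2.57), RPL37 (−2.53), RPL4 (−2.44) and RPL17 (−2.37) had the lowest scores. RPL21 (0.04), RPL22 (−0.19), RPL35A (−0.30), RPL30 (−0.37) and RPL13A (−0.49) were the 5 that did not reach −0.5. Across the 45 members the score had a Spearman rho of 0.21 with the change in total RNA and 0.11 with the change in polysomal RNA. RPL30, with the largest polysomal fall, was among the members with the weakest scores, and RPL17, with one of the strongest, was called in neither fraction.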

How the data were processed

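RNA of sgLUC and sgYBX1 MOLM13 cells was sequenced as 4 total and 4 polysomal libraries each. Build GRCh38 and the tools STAR 2.7.8a (an aligner), featureCounts 2.0.1 (a read counter), Trimmomatic 0.36.5 (a read trimmer) and DESeq2 1.30.0 are listed by the submitters' processing notes. The annotation, the strand setting and the treatment of multi-mapping reads are not given in the sources used here. The authors deposited raw read counts per gene, whole numbers with no normalization, for 18991 genes. The Entrez identifier was the key, since the symbol column matched it for 11 genes only, and 10 genes stayed unnamed. Unnamed genes held 3.62e-07% of counts. Among counts of 1 to 39, even values made up 63.5% (total) and 60.8% (polysomal). The cause was not tested, and precision was taken from replicates. The deposited mean normalized signal per gene (the authors' mean) and the gene effect score per gene, copied by the authors from a public screen, were used as descriptions. Deposited fold changes and p-values of the authors' own comparisons were not used.

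Genes were kept with filterByExpr and scaled with TMM. Quasi-likelihood F tests in edgeR 4.0.16 (limma 3.58.1, R 4.3.3) were fitted over the 8 libraries of a fraction for sgYBX1 against sgLUC (12214 and 11742 genes) and over 16 libraries with 4 group means for the difference of the changes and for polysomal against total RNA (12517 genes). Tests were two-sided, and p-values were adjusted by Benjamini-Hochberg over all genes tested, with calls under 0.05. YBX1 was tested with an exact permutation test. The code was tested on simulated data. Alternatives were DESeq2 1.42.0, limma voom with a weight per group (added after seeing the data), other scalings and filters, a replicate block, the 16-library fit and leaving out each library. Gene lengths and overlaps come from GENCODE 29, and start windows from RefSeq (GRCh38.p14). The members and lists were chosen with earlier results of these data known. Genes named with values are the 5 called members with the smallest p in each direction in total RNA, polysomal RNA and their difference, the 3 highest and 3 lowest by polysomal over total ratio in sgLUC, the stalk genes with RPL5 and RPL11, members the study measured otherwise (RPL3, RPL4, RPL6), tested paralogs and YBX1. RPL39 and the members named by level were singled out after their values were seen. Depth was 38326270 to 66164414 counts per library.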

Additional observations from a re-analysis of the deposited data

Results flagged for a closer look

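In 5 members the change of sgYBX1 over sgLUC differed between polysomal and total RNA by the test of the difference itself, on the log2 scale by 0.44 in RPL6, −0.35 in RPL10, −0.56 in RPL10A, −0.95 in RPL30 and 0.28 in RPLP2. Of 100 groups of 4 libraries examined, 7 held a library far from the other 3, where chance gives about 1 in 20. RPL27A measured 302 CPM in total sgYBX1 replicate 3 against 321 to 322 CPM in the others, and RPL7 measured 633 CPM in the same library against 679 CPM in each of the others. RPL10 measured 1016 CPM in polysomal sgYBX1 replicate 1 against 828 to 847 CPM, and RPL35 measured 4809.6 CPM there against 4420.4 to 4469 CPM. RPL17 measured 11.2 CPM in total sgLUC replicate 2 against 9.47 to 9.72 CPM. Of the paralogs, RPL22L1 measured 80.4 CPM in total sgYBX1 replicate 4 against 77.7 to 78.1 CPM, and RPL26L1 measured 14.9 CPM in total sgYBX1 replicate 3 against 16.4 to 16.5 CPM.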

How the results depend on the processing

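With the spread taken from all 16 libraries, edgeR called 1 member lower and 0 higher in total RNA (20 lower and 1 higher at an unadjusted p under 0.05) and 22 lower and 2 higher in polysomal RNA, while DESeq2 within a fraction called 32 and 1 in total and 14 and 1 in polysomal RNA. Among all genes, the 16-library fit called 78 of 12517 lower and 58 higher in total RNA. In polysomal RNA it called 2485 lower and 2154 higher. DESeq2 called 1218 lower and 1040 higher of 12214 genes in total RNA, and 1324 and 1631 of 11742 in polysomal RNA. Total counts without TMM gave 33 lower and 0 higher members in polysomal RNA (35 and 1 unadjusted), 16 lower and 0 higher differences between the fractions (22 and 0 unadjusted, and 4 and 3 by DESeq2), 11 members lower in polysomal than in total RNA in sgLUC cells, and 16 lower and 25 higher in sgYBX1 cells. Of all 11742 genes, 2652 were lower and 934 higher in polysomal RNA without TMM. Of 12517 genes, 2694 differences were then lower and 677 higher, where DESeq2 called 1068 and 1512. Without TMM 7646 genes were lower in polysomal than in total RNA in sgLUC cells. In sgYBX1 cells 8070 were lower and 2648 higher. With that scaling the polysomal over total log2 ratio turned negative for RPLP0 (−0.37 in sgLUC, −0.81 in sgYBX1), RPL3 (−0.85 in sgLUC), RPL13A (−0.027 in sgYBX1), RPL6 (−0.93 in sgYBX1), RPL10 (−0.071 and −0.62), RPL12 (−0.25 in sgYBX1), RPL5 (−0.54 and −0.43) and RPL4 (−0.44 and −0.58). Higher differences numbered 1 without an expression filter and 1 with a replicate block by culture, where 1131 of 17447 and 1183 of 12517 genes were higher. Same-numbered libraries had correlations of −0.05 to 0.113, and differently numbered ones of −0.117 to 0.08. Such values cannot decide whether libraries of the same number share a culture. The labels call the total libraries input and number both fractions alike, but do not state a shared culture. The main tests across fractions treated the 16 libraries as separate. The replicate block gave 33 lower members in total and 12 in polysomal RNA, where 1094 of 12214 and 1087 of 11742 genes were lower. Leaving out 1 library gave 25 to 36 lower and 1 to 1 higher members in total RNA, 5 to 14 lower and 0 to 1 higher in polysomal RNA, and 2 to 6 lower (6 without polysomal sgLUC replicate 3) and 1 to 3 higher differences, the higher ones at 1 when any 1 of the 8 total libraries was left out and without polysomal replicate 4 of either guide. Lower calls among all genes then ranged from 755 to 1472 in total RNA and from 599 to 1354 in polysomal RNA. For the differences they ranged from 542 to 1301. The causes were not tested. The named genes kept their direction and their side of the threshold in 2367 of 2506 settings, were no longer called in 94, were newly called in 33 and reversed in 12. Depth limited RPL17, with 80 to 880 counts in a library.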

Other observations

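The mean that the authors deposited for RPL39 was 8.23 times its mean count in the 16 libraries, where the median ratio over genes with a mean count of at least 100 was 0.646. Other members also lay away from that median, among them RPL37 at 2.37, RPL36A at 2.05, RPL9 at 2.03 and RPL27A at 1.97 on one side and RPL3 at 0.497, RPL7 at 0.521 and RPL30 at 0.580 on the other. Whether the deposited means and counts come from the same quantification was not tested. The counts of RPL39 were 733 to 4208 in a library. In 18 members the introns hold annotated small nucleolar RNAs, and the 45 members lie on 18 chromosomes.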
